A study of Mus musculus with 2 samples.

Results

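The genes described here carry cholesterol into macrophages, move it out again, or set how much of both takes place. They were chosen by name, as the 10 of the 54532 genes in the deposited expression table whose symbol was Abca1, Abcg1, Scarb1, Nr1h3, Nr1h2, Mylip, Msr1, Cd36, Olr1 or Lpl, and all 10 were found. RNA sequencing was run on macrophages of dyslipidemic male mice modelled on syndromes of traditional Chinese medicine, phlegm-dampness retention (PDR) and spleen and kidney Yang deficiency (SKYD). The cells came from trypsin-digested aorta and were sorted on F4/80 and CD11b, which mark macrophages and related myeloid cells. Each group was sequenced as 1 library made from the cells of 5 mice, so the differences below come without replicates.

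Mice of both groups were ApoE-/- on the C57BL/6J background, 6 weeks old by the labels. By its label, each group thus carries a deletion of the gene for apolipoprotein E, which carries cholesterol from cells to the liver. The PDR group received a high-fat diet for 4 weeks. In the SKYD group, propylthiouracil, a drug that lowers thyroid hormone, was given by gavage for 4 weeks at 10 mg/kg per day, and a high-fat diet followed for 2 weeks. Syndrome, drug, length of diet and age at sampling therefore cannot be told apart in these libraries. No library of untreated or wild-type mice was analysed here.

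Macrophages of the artery wall take up modified lipoproteins through scavenger receptors, whose expression is not shut off when the cell fills with cholesterol, and they become foam cells when uptake exceeds removal. Excess cholesterol is oxidised in part to oxysterols, which activate the liver X receptors. These receptors pair with the retinoid X receptor on DNA and turn on the transporters that pass cholesterol to apolipoprotein A-I and to high-density lipoprotein (HDL).

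Upstream sequence was read for the members because several of them are known targets of the liver X receptors. RefSeq promoters (GRCm38.p6) matched 6 of the 10 members by symbol, with 7 entries in all, and the 250 bases before each start were searched on both strands. The window of Abca1, at chr4:53159896-53160145 on the minus strand, is shown for the transporter best known as such a target. That of Olr1, at chr6:129507166-129507415 on the minus strand, is shown for the scavenger receptor with the lowest level. Capitals mark a DR4-like pattern and an E-box in Abca1, and a single AGGTCA hexamer in Olr1.
Abca1: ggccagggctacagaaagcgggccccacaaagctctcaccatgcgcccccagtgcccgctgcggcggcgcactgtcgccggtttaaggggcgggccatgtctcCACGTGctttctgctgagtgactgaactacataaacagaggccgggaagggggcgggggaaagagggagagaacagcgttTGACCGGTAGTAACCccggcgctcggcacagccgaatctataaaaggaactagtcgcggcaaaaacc
Olr1: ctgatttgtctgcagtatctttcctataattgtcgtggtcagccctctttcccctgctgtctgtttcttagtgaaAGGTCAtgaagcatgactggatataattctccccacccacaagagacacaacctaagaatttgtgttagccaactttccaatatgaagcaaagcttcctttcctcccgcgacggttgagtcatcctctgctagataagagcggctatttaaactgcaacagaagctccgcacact
The DR4-like pattern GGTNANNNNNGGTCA, written so as to take in the Abca1 element, holds a pair of hexamers, loosely spelled, at the spacing that liver X receptors bind. It occurred in 58 of 32851 promoters of this length (0.177%), and among the members in Abca1 alone, where it began at position -67 from the start. The hexamer AGGTCA occurred in 14.0% of promoters, and among the members in those of Olr1, at -175, and of Cd36, at -228. The E-box CACGTG, found in 6.02% of promoters, began at -147 in Abca1. A TATAAA sequence, found in 12.4% of promoters, began at -29 in Abca1 and at -32 in Mylip. None of these patterns was found in the windows of Nr1h3 and Nr1h2. A match describes letters in a window and is not a binding site.

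The deposited values are FPKM, in which reads are divided by gene length and by library size. FPKM multiplied by gene length and library size gave whole reads, within 0.05 of a read, for 100% of the genes above 0 in each library (17738 genes in PDR and 20499 in SKYD). Reads on genes summed to 23086889 for PDR and 25427863 for SKYD. For differences and folds of single genes, intervals are 95% exact (Clopper-Pearson) limits on how the reads of a gene split between the libraries. For shares of reads they are 95% exact binomial limits inside a library, and for levels 95% exact Poisson limits. For changes in ratios between members they are 95% limits from a normal approximation on the log scale. All of them cover counting error only. A count of 0 allows up to 3 reads, a share of 1.3e-05% for PDR and of 1.18e-05% for SKYD.

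The deleted gene was examined first. Apoe (ENSMUSG00000002985) had 17336 reads (345 FPKM) in the PDR library and 3618 reads (67.7 FPKM) in the SKYD library. Values per gene cannot tell exons of the targeted allele from the rest of the gene, so this value does not check the genotype of the libraries labelled ApoE-/-.

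The labelled cell type was compared with its markers. All 14 macrophage markers were expressed in both libraries, and together they took 3.38% of the PDR reads (95% CI 3.37 to 3.38) and 6.29% of the SKYD reads (95% CI 6.28 to 6.30). Lysozyme Lyz2 was the most abundant, at 22217 and 41336 FPKM, and alone gave 88.1% of the marker reads in PDR and 85.0% in SKYD. Both genes of the sort were expressed. Adgre1, which encodes F4/80, was at 87.3 FPKM in PDR and 93.3 in SKYD, while Itgam, which encodes CD11b, was at 8.84 and 14.4 FPKM. The macrophage markers had a median difference of -0.78, with 6 of 14 more than 2-fold higher in SKYD and 0 of 14 in PDR. Of the 14, 2 were higher in PDR, namely Csf1r at 57.7 and 44.9 FPKM (0.35) and Fcgr1 at 51.9 and 35.3 FPKM (0.54), both named after their values were seen. A scaling to equal summed macrophage markers, used below, multiplies PDR by 1.94 relative to SKYD and rests largely on Lyz2. The factor was 2.55 from the other 13 markers and 1.07 from Adgre1 alone, so the scale depends on the markers taken. In bulk libraries, fewer macrophages and less of a transcript per macrophage cannot be told apart.

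Differences are given as log2(FPKM + 1) in PDR minus SKYD, a scale that understates the change of genes with low values. Genes were compared where their FPKM averaged 1 or more over both libraries. Of these 10399 genes, 1486 (14.3%) were more than 2-fold apart, with 767 (7.38%) higher in PDR and 719 (6.91%) higher in SKYD. Of the 10 members, 9 reached that mean, and 0 of the 9 were more than 2-fold apart in either direction. At the background share, a list of this size holds few such genes, so the count says nothing particular to the members. Olr1 lay below the mean and was left out of counts and medians.

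Among the 9 members compared, 3 were higher in PDR and 6 were lower, with a median difference of -0.11 that became 0.77 when the libraries were scaled to equal summed macrophage markers. Over all genes compared the median was -0.0035, and that scaling moved it to 0.78. It also moved the genes more than 2-fold apart from 767 higher in PDR and 719 higher in SKYD to 3496 and 326. Relative to the median of all genes, the members' median was -0.11 on FPKM as deposited and -0.00092 under that scaling. The members spanned -0.73 to 0.18, where the central part of all genes, between the 5th and 95th percentiles, spanned -1.24 to 1.30. Abcg1 and Lpl stood at the low end of that span, and the remaining members differed by no more than 0.25 in size.

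**Figure D1:**
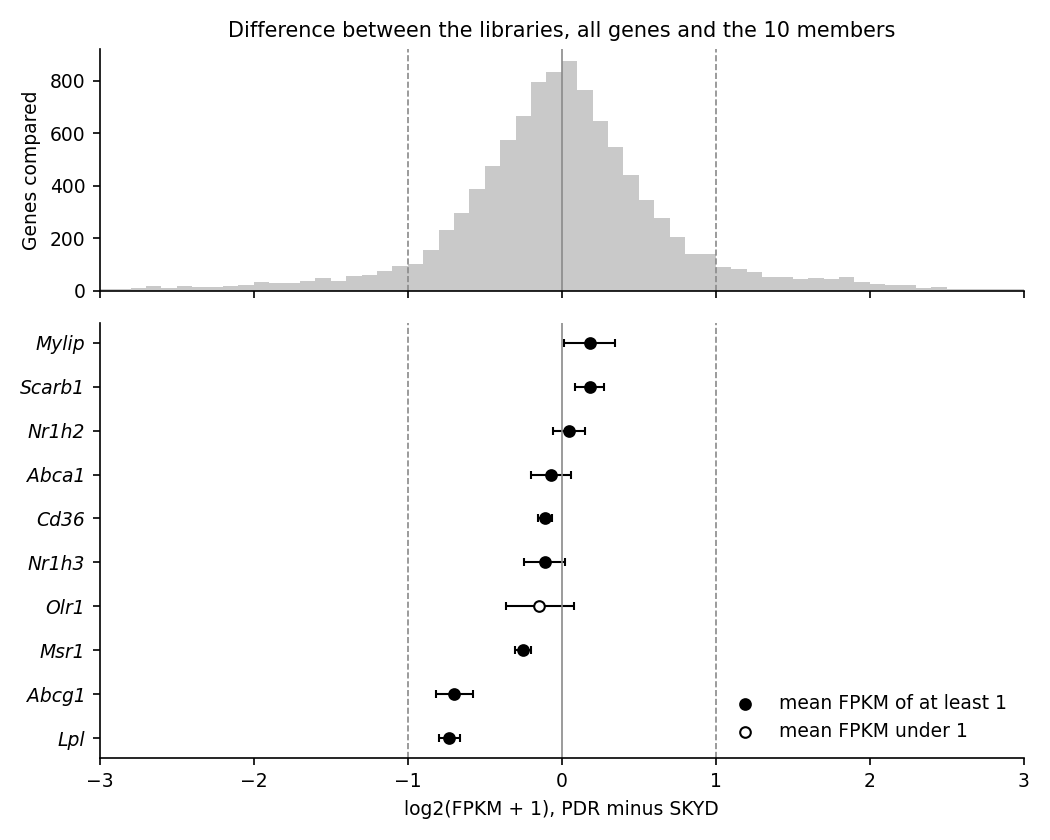
Differences in log2(FPKM + 1), PDR minus SKYD. The upper panel counts all 10399 genes compared in bins of equal width, and the lower panel shows each member with its 95% counting interval, dashed lines marking a 2-fold difference. Lpl at -0.73 and Abcg1 at -0.70 lie furthest from 0, and both turn to above 0 when macrophage markers are made equal in sum.

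Together the members took 0.0827% of the PDR reads and 0.0945% of the SKYD reads. Cd36 and Msr1 supplied most of these, with 35.4% and 26.8% of member reads in PDR and 32.4% and 27.1% in SKYD. The share of Lpl was 11.6% in PDR (95% CI 11.1 to 12.0) and 17.0% in SKYD (95% CI 16.5 to 17.4). Scarb1 went the other way, from 7.78% of member reads in PDR (95% CI 7.40 to 8.17) to 5.70% in SKYD (95% CI 5.41 to 6.00).

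Abca1, Abcg1 and Scarb1 move cholesterol out of the cell or exchange it with HDL. Abca1 (ENSMUSG00000015243, chr4:53030787-53159895 in GRCm38) encodes the transporter that loads lipid-poor apolipoprotein A-I, and its upstream window is the one with the DR4-like pattern. It had 239 reads in PDR and 280 in SKYD, or 0.982 and 1.08 FPKM. These levels were low for both libraries, at the 5.81 and 5.90 percentiles of the genes compared. The difference of -0.07 (95% CI -0.20 to 0.06) was within counting error on FPKM as deposited and became 0.41 when macrophage markers were scaled to equal sums.

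Abcg1 (ENSMUSG00000024030, chr17:31057698-31115777) encodes the transporter that hands cholesterol to HDL particles already formed. It had 728 reads in PDR and 1319 in SKYD, or 7.62 and 13.0 FPKM. The SKYD level was 1.70-fold higher (95% CI 1.55 to 1.87), a difference of -0.70 that 76.2% of all genes compared did not reach in size. When macrophage markers were scaled to equal sums, the difference of Abcg1 became 0.17, which was -0.61 relative to the median of all genes. It was therefore below the median of all genes on both scales, while its sign depended on the scaling.

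Scarb1 (ENSMUSG00000037936, chr5:125277087-125341094) encodes SR-BI, the HDL receptor that passes cholesterol in both directions across the membrane. It had 1486 reads in PDR and 1371 in SKYD, or 7.44 and 6.45 FPKM. The PDR level was 1.15-fold higher (95% CI 1.07 to 1.24), with a difference of 0.18. That difference stayed above 0 in every setting tried, but each scaling tried raised PDR relative to SKYD, so none could reverse it. It became 1.01 under the macrophage marker scaling and 1.35 without Lyz2, both past 2-fold, where the medians of all genes were 0.78 and 1.11. Scarb1 is also a gene of hepatocytes, and 13 of 14 hepatocyte markers were more than 2-fold higher in PDR, with a summed level of 2443 FPKM in PDR and 818 in SKYD. Their part in the Scarb1 result was not tested.

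The sensors of cholesterol load were close between the groups on FPKM as deposited. Nr1h3 (ENSMUSG00000002108, chr2:91184061-91202834) encodes LXRα, a liver X receptor expressed mainly in macrophages, liver and fat. It stood at 778 reads in PDR and 900 in SKYD, or 13.2 and 14.3 FPKM. Nr1h2 (ENSMUSG00000060601, chr7:44549616-44553951) encodes LXRβ, which most tissues express. It stood at 1280 reads in PDR and 1317 in SKYD, or 16.2 and 15.7 FPKM. The differences of -0.11 for Nr1h3 (95% CI -0.24 to 0.02) and 0.05 for Nr1h2 (95% CI -0.06 to 0.15) were both within counting error. Under the macrophage marker scaling they became 0.77 and 0.94, against 0.78 for the median of all genes. Per length, Nr1h2 was above Nr1h3 in both libraries, though the counting intervals of their levels overlapped in SKYD. The ratio of Nr1h3 to Nr1h2 was 0.811 in PDR and 0.911 in SKYD. The change in this ratio between the libraries, 1.12-fold, had an interval that included 1 (0.994 to 1.27).

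Mylip (ENSMUSG00000038175, chr13:45389742-45412022) encodes IDOL, a ubiquitin ligase that liver X receptors turn on and that limits lipoprotein uptake. It had 434 reads in PDR and 398 in SKYD, or 5.72 and 4.93 FPKM. The PDR level was 1.16-fold higher, and the interval of the difference of 0.18 came close to 0 (95% CI 0.01 to 0.35). The difference became 0.98 under the macrophage marker scaling.

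The scavenger receptors spanned a wide range of levels. Cd36 (ENSMUSG00000002944, chr5:17781690-17888801) encodes a receptor for oxidised LDL and long-chain fatty acids and was the most abundant member by FPKM. It had 6769 reads in PDR and 7783 in SKYD, or 80.3 and 86.7 FPKM, at the 90.6 and 91.2 percentiles of the genes compared. The SKYD level was 1.08-fold higher (95% CI 1.05 to 1.12), a size that exceeded counting error but was larger than that of only 18.2% of genes. Its difference of -0.11 became 0.83 when macrophage markers were scaled to equal sums, against 0.78 for the median of all genes.

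Msr1 (ENSMUSG00000025044, chr8:39581685-39642673) encodes scavenger receptor A, which binds acetylated and oxidised LDL. It had 5121 reads in PDR and 6521 in SKYD, or 34.4 and 41.1 FPKM. The level was 1.20-fold higher in SKYD (95% CI 1.15 to 1.24), with a difference of -0.25 that became 0.68 under the macrophage marker scaling. On FPKM as deposited, both receptors thus differed by less than the median size of difference over all genes, which was 0.35.

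Olr1 (ENSMUSG00000030162, chr6:129485244-129507165) encodes LOX-1, an oxidised LDL receptor best known from endothelium. It was the least abundant member, with 54 reads in PDR and 73 in SKYD, or 0.644 and 0.818 FPKM. At this depth no difference was detectable (-0.15, 95% CI -0.36 to 0.08) on FPKM as deposited, and the value became 0.26 under the macrophage marker scaling. Endothelial markers were scarce in both libraries, with a summed level of 5.25 FPKM over 10 genes in PDR and 3.93 in SKYD, and 1 of the 10 reached the mean of 1 FPKM. Pecam1 was the most abundant of them, and Robo4 was listed at 0 in both.

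Lpl (ENSMUSG00000015568, chr8:68880491-68907448) encodes lipoprotein lipase, which macrophages secrete and which releases fatty acids from triglyceride-rich particles. It had 2212 reads in PDR and 4077 in SKYD, or 8.99 and 15.6 FPKM. Lpl had the largest difference of the members on FPKM as deposited, with a SKYD level 1.73-fold higher (95% CI 1.64 to 1.82). The difference of -0.73 exceeded that of 77.7% of the genes compared and became 0.15 under the macrophage marker scaling, or -0.63 relative to the median of all genes. Adipocytes and striated muscle also express Lpl. The 9 adipocyte markers summed to 1.55 FPKM in PDR and 4.75 in SKYD, with Cidea the most abundant by its mean over the libraries (0.256 and 1.51 FPKM) and Lep and Plin4 at 0 in both. Retn led in PDR at 0.458 FPKM, and Cfd led in SKYD at 1.56. Adipoq, the adiponectin gene, went the other way, with 13 reads in PDR and 3 in SKYD. The 9 heart and striated muscle markers summed to 24.6 and 11.8 FPKM, with Myh6, Actc1 and Nppa at 0 in both. Acta1 was the most abundant of them, at 22.8 and 8.05 FPKM, while Myl7 went the other way, at 0.433 and 2.92. The part of these cells in the Lpl result was not tested.

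**Figure D2:**
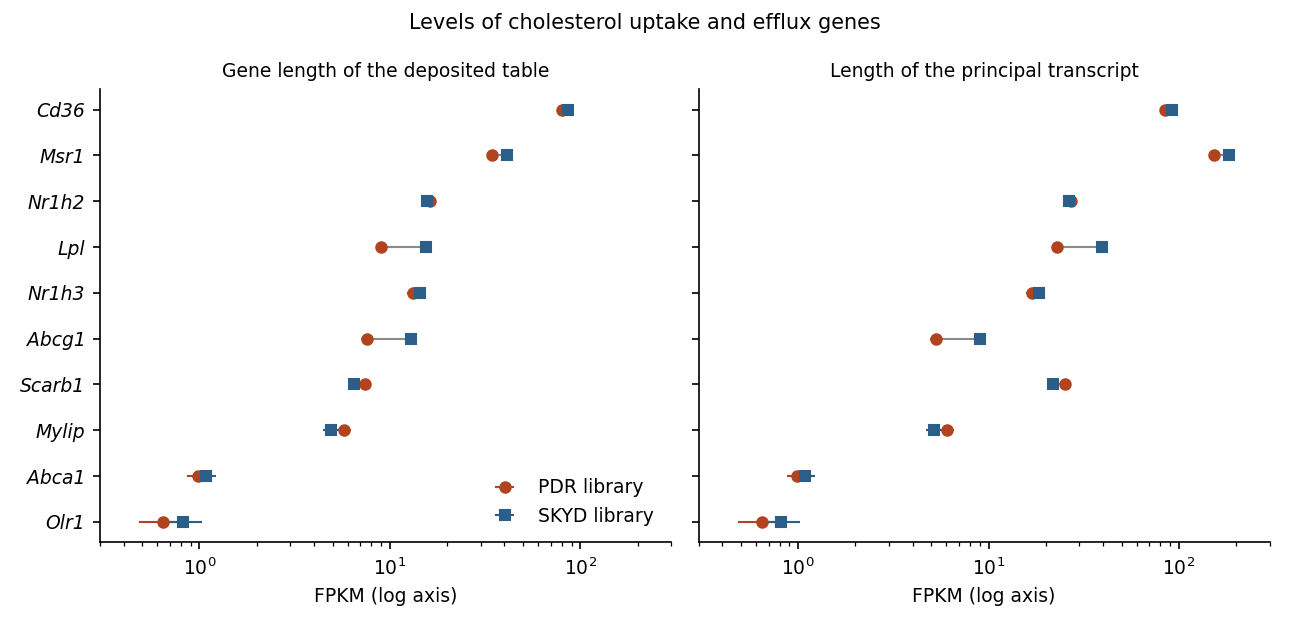
Levels of the 10 members in FPKM on a log axis, with circles for the PDR library, squares for the SKYD library and bars for 95% counting intervals. The left panel uses the gene length of the deposited table, with Cd36 highest at 80.3 and 86.7, and the right panel uses the principal transcript length, with Msr1 highest at 153 and 183 and Abcg1 possibly understated, since its reads were counted on a shorter gene model.

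Ordered by FPKM in PDR, the members ran from Cd36 through Msr1, Nr1h2, Nr1h3, Lpl, Abcg1, Scarb1, Mylip and Abca1 to Olr1. In SKYD, Lpl stood above Nr1h3, and the other positions were unchanged. In PDR, Abcg1 and Scarb1 were the only neighbours in this order whose counting intervals overlapped. In SKYD, the intervals overlapped from Nr1h2 to Lpl, from Lpl to Nr1h3, from Nr1h3 to Abcg1 and from Abca1 to Olr1. The order also depended on gene length. For 9 of the 10 members, all but Abcg1, the length in the deposited table equalled all exon bases annotated in GENCODE M21. For Msr1 this length was 6344 bases, or 4.46 times its principal transcript of 1424 bases. The same ratio was 3.37 for Scarb1 and 2.55 for Lpl. With the length of the principal transcript, a choice made after the data were seen, Msr1 stood above Cd36, at 153 and 183 FPKM against 84.8 and 91.6. Scarb1 then stood at 25.1 FPKM in PDR and 21.8 in SKYD, above both transporters. For Abcg1 the length in the table, 4066 bases, was shorter than the principal transcript of 5832 bases and than the 7298 exon bases of GENCODE M21. Its reads were thus counted on a shorter gene model, and dividing them by the principal transcript, which gave 5.31 and 9.05 FPKM, can understate its level. Gene length did not enter differences between libraries for the same gene beyond the added pseudocount.

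Ratios between members inside a library do not depend on how the libraries are scaled. Abcg1 over Abca1 was 7.76 in PDR and 12.0 in SKYD, or 1.55-fold higher in SKYD (95% CI 1.27 to 1.88). Relative to the transporter for apolipoprotein A-I, the one for HDL was thus more abundant in the SKYD library. Lpl over Cd36 was 0.112 in PDR and 0.179 in SKYD, 1.60-fold higher in SKYD (95% CI 1.51 to 1.70). Cd36 over Msr1 moved less, at 2.34 in PDR and 2.11 in SKYD, which was 1.11-fold higher in PDR (95% CI 1.05 to 1.16). Cd36 over Scarb1 was 10.8 in PDR and 13.4 in SKYD, 1.25-fold higher in SKYD (95% CI 1.15 to 1.35). Abcg1 over Msr1, an efflux gene against an uptake gene, was 0.222 in PDR and 0.316 in SKYD, 1.42-fold higher in SKYD (95% CI 1.29 to 1.57). Lpl over Abcg1 was nearly the same in both libraries, at 1.18 and 1.20, and the interval of its change included 1 (0.917 to 1.13). The members of largest difference as deposited, Lpl and Abcg1, thus differed by about the same factor. How a ratio changed between libraries does not depend on gene length, but its level does. With principal transcript lengths, Cd36 over Msr1 was 0.55 in PDR and 0.50 in SKYD, and Cd36 over Scarb1 was 3.38 and 4.21. Lpl over Cd36 was then 0.270 and 0.433, and Nr1h3 over Nr1h2 was 0.621 and 0.699. The ratios with Abcg1 also carry the limit of its shorter gene model. They came to 5.36 and 8.29 over Abca1, 0.0347 and 0.0494 over Msr1, and 4.31 and 4.38 for Lpl over Abcg1.

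**Figure D3:**
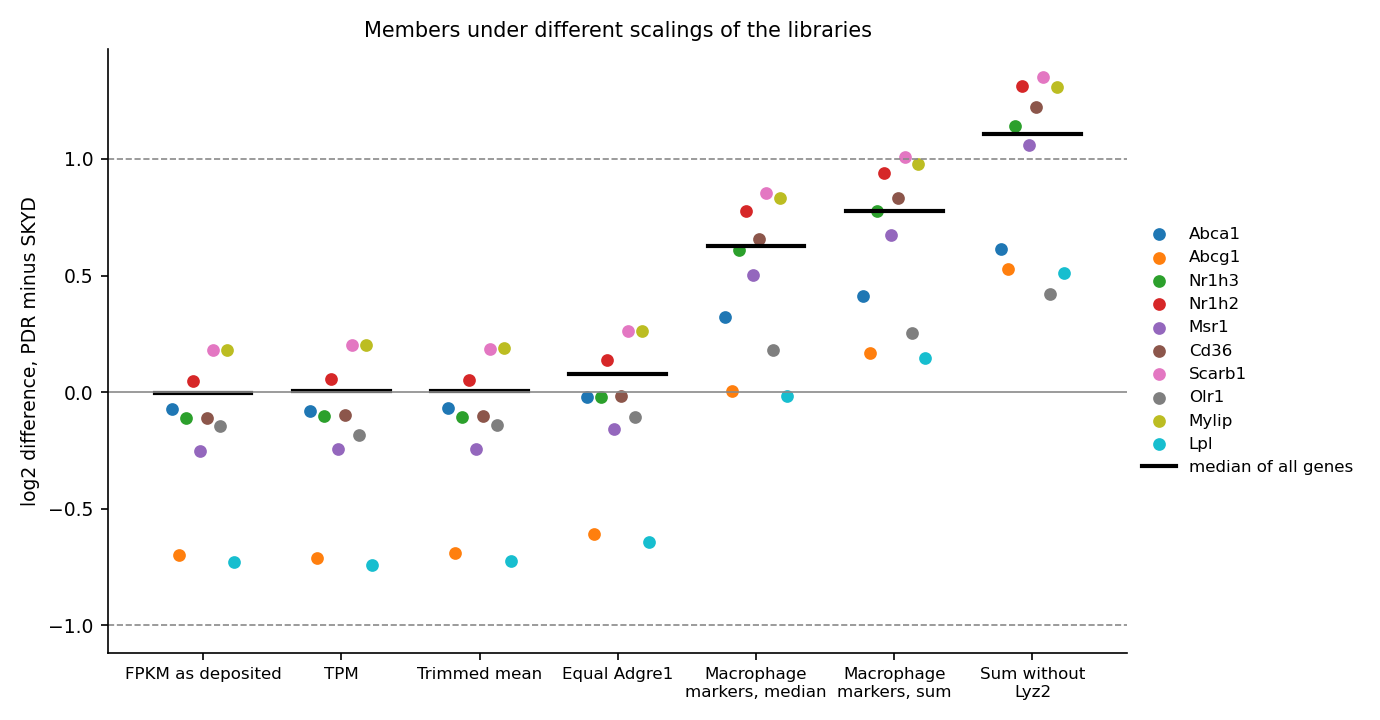
Log2 differences of the 10 members, PDR minus SKYD, under 7 scalings of the libraries, with a black bar for the median of all genes compared. With macrophage markers equal in sum the median of all genes lies at 0.78 and all 10 members lie above 0, while Abcg1 and Lpl lie lowest except in the sum without Lyz2, where Olr1 (0.42) lies below Lpl (0.51) and Abcg1 (0.53).

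Other genes of the same pathways were described from 5 lists. Mertk, Cd68, Cd163 and Mrc1 of these lists are also macrophage markers and so enter the scaling to those markers. Cd209a is also among the dendritic cell markers. Of 19 partners and targets of the liver X receptors, 11 were compared, with a median difference of -0.41 that became 0.36 under the macrophage marker scaling. In that list, 1 gene was more than 2-fold higher in PDR and 1 in SKYD, as were 7.38% and 6.91% of all genes compared. Pltp, the phospholipid transfer protein of plasma lipoproteins, was at 70.9 FPKM in PDR and 213 in SKYD (-1.58). Scd1, a desaturase of fatty acids, was at 10.4 and 3.28 FPKM (1.42). Smpdl3a, a phosphodiesterase and the most abundant of the list, was at 437 and 611 FPKM (-0.48). In all, 2 of the 11 were higher in PDR and 9 were lower on FPKM as deposited. The other gene higher in PDR was Apoc1, an apolipoprotein gene next to Apoe, at 226 and 141 FPKM (0.68). Apoc2 was listed at 0 in both libraries, and 79.5% of its exon bases overlap another annotated gene.

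Of 22 other scavenger and lipoprotein receptors, 13 were compared, with a median difference of -0.34 that became 0.37 under the macrophage marker scaling. Cd209a, a lectin of dendritic cells and some macrophages, was at 42.4 FPKM in PDR and 167 in SKYD (-1.95). Cd163, the haemoglobin scavenger receptor, was at 0.741 and 3.29 FPKM (-1.30). Clec7a, the receptor for fungal beta-glucan, was higher in PDR, at 134 and 57.0 FPKM (1.23). These were the 3 receptors of the list more than 2-fold apart on FPKM as deposited. Cd68, a lysosomal glycoprotein and the most abundant of the list, was at 259 and 388 FPKM (-0.58). Vldlr and Megf10 were listed at 0 in both libraries.

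Genes of cholesterol esterification, hydrolysis and transport inside the cell were balanced. Of 21 on the list, 16 were compared, with a median of -0.01 that became 0.76 under the macrophage marker scaling. Lcat esterifies cholesterol on HDL and is mainly a liver gene. It was the 1 gene of the 16 more than 2-fold apart in log2(FPKM + 1), against 14.3% of all genes compared. Lcat was at 10.3 FPKM in PDR and 2.50 in SKYD (1.69). Soat2, at 0.789 FPKM in PDR and 1.81 in SKYD, was 2.29-fold higher in SKYD without a pseudocount. With pseudocounts of 0.1 and 0.01 FPKM, 1 gene of the list was more than 2-fold higher in each library. The most abundant were Tspo, a mitochondrial cholesterol-binding protein, at 658 and 813 FPKM (-0.31), and Plin2, which coats lipid droplets, at 107 and 154 FPKM (-0.52). Npc2, which carries cholesterol out of lysosomes, followed at 68.0 and 92.1 FPKM (-0.43). Abcg4 was listed at 0 in both libraries.

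Of 16 partners of lipoprotein lipase and related lipases, 11 were compared, with a median difference of 0.76 that was above 0 in every scaling tried. In log2(FPKM + 1) of the deposited values, 3 of them were more than 2-fold higher in PDR, as were 7.38% of all genes. Both the count and this share depended on the setting, and not always together. The count stayed at 3 under the Adgre1 scaling (8.33% of all genes). It was 5 with TPM (8.69%) or a pseudocount of 0.1 FPKM (10.2%) and 6 with a pseudocount of 0.01 (10.5%). It was 7 under the macrophage marker scaling (33.6%) and also under the scaling to the median of those markers (24.4%). Apoc3, an inhibitor of the lipase, was at 92.5 FPKM in PDR and 30.5 in SKYD (1.57). Apoa5, an activator, was at 7.04 and 2.41 FPKM (1.24), and part of its exons (20.8%) overlap another gene. Lipc, hepatic lipase, was at 4.73 and 1.38 FPKM (1.27). Liver expresses each of these genes, and they were higher in the same library as the hepatocyte markers given beside Scarb1, whose median difference was 1.82 and whose most abundant gene was Apoa2 at 793 and 294 FPKM. The part of hepatocyte transcripts in this list was not tested. Pnpla2, the triglyceride lipase of lipid droplets, went the way of Lpl, at 19.9 and 38.8 FPKM (-0.93). Sel1l, which helps the lipase leave the endoplasmic reticulum, was at 7.93 and 5.16 FPKM (0.54).

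The last list held PPAR receptors, whose known targets include Cd36 and Lpl, and other targets of theirs. Of its 14 genes, 9 were compared, with a median difference of 0.09 that became 0.85 under the macrophage marker scaling. Fabp4, the fatty acid binding protein of fat cells and macrophages, was at 23.0 FPKM in PDR and 99.5 in SKYD (-2.07). Fabp5, its relative, was at 26.5 and 64.1 FPKM (-1.24). Of the receptors, Pparg was at 5.02 and 4.66 FPKM, a difference within counting error (0.09, 95% CI -0.09 to 0.27), and it was named after its values were seen. The most abundant gene was Ucp2, a mitochondrial carrier, at 168 and 278 FPKM (-0.72), followed by Acadl, an enzyme of fatty acid oxidation, at 73.4 and 52.9 FPKM (0.46). Under the macrophage marker scaling, the genes more than 2-fold higher in PDR were 33.6% of all genes compared. They numbered 2 of 11 in the liver X receptor list, 4 of 13 in the receptor list, 4 of 16 in the transport list and 3 of 9 in the PPAR list, near or below that share.

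**Figure D4:**
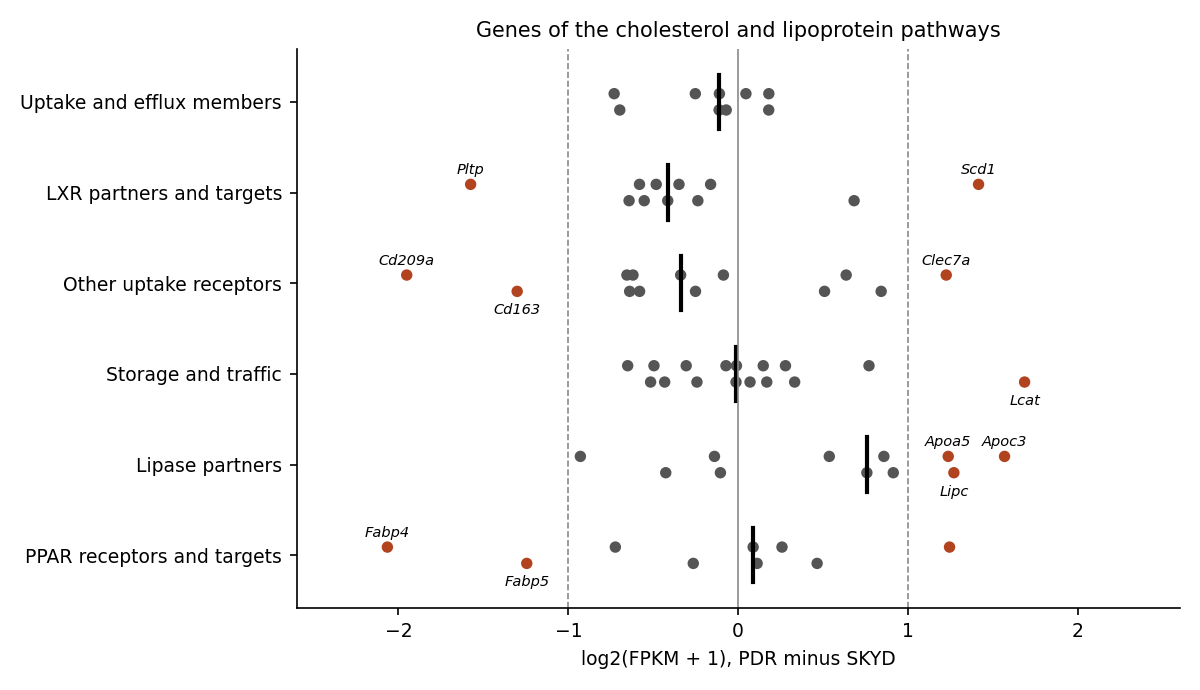
Differences in log2(FPKM + 1), PDR minus SKYD, of the members and of the genes compared in 5 pathway lists, with a black bar for each median and dashed lines at 2-fold. No member passes a 2-fold line, whereas genes named in the plot do, and all medians except that of the lipase partners (0.76) lie between -0.41 and 0.09 before scaling to macrophage markers, which moves each above 0.

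Several members are also expressed by cells other than macrophages, and markers of such cells differed between the libraries. Platelets carry CD36. The 10 platelet markers summed to 254 FPKM in PDR and 1472 in SKYD, of which Pf4 gave 218 and 1446 FPKM, while 5 of the 6 compared were higher in PDR and Gp1bb was listed at 0 in both. T cell markers were more than 2-fold higher in SKYD for 10 of 10 genes, with a summed level of 195 and 1328 FPKM. By the mean over the libraries Cd8b1 was the most abundant, at 39.7 and 535 FPKM, while Lck led in PDR at 47.9. B cell markers were more than 2-fold higher in PDR for 7 of the 7 compared, with 1724 and 390 FPKM in sum. Cd79b was the most abundant by the same mean, at 802 and 168 FPKM, while Cd79a led in SKYD at 178. The part of these cells in the values of the members was not tested.

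Macrophages of other sites and further cell types were checked in the same way, with counts in log2(FPKM + 1) of the deposited values. Under the macrophage marker scaling, those higher in PDR became 10 of 12 for neutrophils, 2 of 6 for erythroid cells, 1 of 5 for liver macrophages and 1 of 6 for dendritic cells. Those higher in SKYD became 3 of 10 for peritoneal macrophages, 1 of 5 for liver macrophages and 1 of 3 for fibroblasts. They stayed at 2 of 6 for dendritic cells. Markers of peritoneal macrophages were more than 2-fold higher in SKYD for 4 of 10 genes, with 657 FPKM in PDR and 1740 in SKYD in sum and Alox15 the most abundant. Those of liver macrophages summed to 155 and 227 FPKM, with 2 of 5 compared more than 2-fold higher in SKYD and Cd5l the most abundant. Dendritic cell markers summed to 106 and 217 FPKM, with 2 of 6 compared more than 2-fold higher in SKYD. Cd209a was the most abundant by the mean, while Ccr7 led in PDR, at 56.7 FPKM against 30.1 in SKYD. Neutrophil markers summed to 4895 and 3738 FPKM, with S100a9 the most abundant and 4 of 12 more than 2-fold higher in PDR. Fibroblast markers summed to 11.2 and 46.5 FPKM, with Dcn the most abundant and 3 of 3 compared more than 2-fold higher in SKYD. Erythroid markers summed to 20989 and 28335 FPKM, with Hba-a1 the most abundant and 0 of 6 compared more than 2-fold apart. Smooth muscle markers were scarce at 3.33 and 3.42 FPKM in sum, led by Des in PDR (1.60) and by Acta2 in SKYD (2.34), and Myh11, Tagln, Cnn1 and Lmod1 were listed at 0 in both libraries.

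The members' reads were little exposed to other genes. No member shared exon bases with another annotated gene except Nr1h3, with 34 bases (1.35%) on the same strand. Windows of 100 bases, the length of a read, that also occur in transcripts of another gene made up 0.347% of those of Lpl and 0% of those of the other 9 members.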

How the data were processed

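RNA of sorted macrophages was sequenced in 1 pooled library a group. The authors aligned 100-base paired reads with TopHat2 2.0.9 and Bowtie2 2.0.6, counted them with HTSeq 0.6.1 and deposited FPKM for 54532 genes. The deposited table also gives a gene length, in bases, that the authors used for FPKM. The submitters' notes name mm9, but 98.3% of the 54409 genes shared with GENCODE M21 (GRCm38) have the same start and end. Whether counting used strand is not given in the sources used here.

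Reads were recovered from the step of FPKM times gene length, and the size behind FPKM was 1.02 times the recovered reads in PDR and 0.983 times in SKYD. A pseudocount of 1 FPKM and a minimum mean of 1 FPKM were used, with 2-fold as the threshold. No test across genes was made. Members and lists were chosen with earlier results of these data known. All members were named, with the genes of each pathway list more than 2-fold apart and its 3 of highest mean FPKM, and from each of 15 marker lists the most abundant gene and those at 0. A gene that this rule names is not reported here. With 2 libraries no likeness between genes was measured. Alternatives were other pseudocounts, filters, scalings, biotypes and thresholds. Steps were tested on simulated data with Python 3.11.15, numpy 2.4.6, pandas 2.3.3 and scipy 1.17.1, and matplotlib 3.10.9 drew the plots.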

Additional observations from a re-analysis of the deposited data

How the results depend on the processing

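With 1 library a group, no replicate could be left out. No paired analysis was possible because each group has 1 pooled library. On FPKM as deposited, 0 members were more than 2-fold apart, the members' median was -0.11 and 1486 of all genes were more than 2-fold apart. Pseudocounts of 0.1 and 0.01 FPKM, no filter, TPM, centring, a trimmed mean and protein-coding genes alone left 0 members past 2-fold, with all-gene counts within 1.5 times except as follows. A mean FPKM of at least 5 gave 837 genes, and a 4-fold threshold gave 410. Scaling to equal summed macrophage markers gave 1 member (Scarb1), a members' median of 0.77 and 3822 genes, and moved the median of all genes to 0.78. Further scalings were chosen after seeing the data. The median of the macrophage markers gave 0 members, a members' median of 0.61 and 2891 genes (2535 higher in PDR and 356 in SKYD). The summed markers without Lyz2 gave 6 members, a members' median of 1.14 and 6237 genes (5980 and 257). Adgre1 alone gave 0 members, a members' median of -0.022 and 1509 genes. These scalings multiply PDR by a constant relative to SKYD, and with a pseudocount of 1 FPKM this moves genes of low level less. Relative to the median of all genes, the marker sum took Abca1 from -0.07 to -0.36 and Olr1 from -0.14 to -0.52. Relative to the median of all genes, the members' median lay between -0.12 and 0.04 in every setting. Nr1h2, Scarb1 and Mylip were above 0 in 10 of 10 settings, Lpl was below 0 in 8, and the other members in 7. Every scaling tried raised PDR relative to SKYD, so a difference above 0 as deposited had to stay above 0. Of 90 single differences of members under alternatives, 33 moved beyond their counting interval. All of these were under scalings to macrophage markers or to Adgre1, which shift every gene the same way. Of 20 levels, 14 moved with the principal transcript length. Depth limits Olr1 and Abca1 most, at 54 and 239 reads in PDR.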
